A study of Mus musculus with 8 samples.

Results

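Mature miRNAs of mouse embryonic stem cells that lack AGO2 and carry an induced AGO1 transgene were compared with those of wild type cells, miRNA by miRNA. The comparison rests on 4 of the 8 libraries of the series, 2 of the induced AGO1 line and 2 of wild type, and covers all 1915 mature miRNAs of the deposited table. Of these, 901 had no count in any library and 475 passed the abundance filter and were tested. Wild type stands for E14, an established pluripotent line of 129/Ola background, here grown without doxycycline. The induced line is labelled as an Ago2 knockout with inducible ectopic AGO1, made from knockout line 1, and was treated with doxycycline at 1 µg/mL. The same line without doxycycline (2 libraries) and knockout lines 1 and 2 (1 library each) are the other groups of the series, and their levels are given for the miRNAs described most closely. All cells grew in 15% serum with 100 U/mL LIF on gelatine, and the AGO1 line was also kept in puromycin at 2 µg/mL. The labels give 1 AGO1 line for all 4 of its libraries, so AGO1, the drugs and the history of this line cannot be told apart in a comparison with wild type. They do not say whether libraries A and B are separate cultures, so p-values measure the spread between libraries, which may be technical. That spread is shared over all 8 libraries, and the knockout group is 2 different lines, so it also includes a difference between lines.

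Argonaute proteins hold mature miRNAs and lead them to target messenger RNAs, and a miRNA strand that finds no Argonaute is soon degraded. A precursor hairpin gives a duplex whose strands, the 5p and the 3p arm, compete for loading, and most hairpins deliver mainly one of them. AGO2 can cut a well-paired target, and AGO1 is a close relative that loads many of the same miRNAs. Bases 2 to 8 of the mature miRNA, the seed, pair with the target, and miRNAs that share a seed are grouped as a family.

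The sequences below carry the main contrasts. They are RefSeq mature miRNAs (GRCm38.p6), written 5′ to 3′ with the seed in capitals, and 384 of the 475 tested miRNAs had an entry of the same name. The miR-181 and miR-25 families are shown because members with 1 seed stood on opposite sides of wild type, and the miR-17 family because nearly all of its members were lower.
miR-181a-5p: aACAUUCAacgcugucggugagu
miR-181b-5p: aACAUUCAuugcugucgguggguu
miR-181c-5p: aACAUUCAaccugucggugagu
miR-181d-5p: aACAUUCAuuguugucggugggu
miR-25-3p: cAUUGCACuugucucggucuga
miR-32-5p: uAUUGCACauuacuaaguugca
miR-92a-3p: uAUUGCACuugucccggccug
miR-92b-3p: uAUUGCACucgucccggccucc
miR-363-3p: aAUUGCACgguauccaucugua
miR-17-5p: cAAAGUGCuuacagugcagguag
miR-20a-5p: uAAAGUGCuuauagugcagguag
miR-20b-5p: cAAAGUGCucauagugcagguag
miR-93-5p: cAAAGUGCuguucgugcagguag
miR-106a-5p: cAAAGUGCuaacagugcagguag
miR-106b-5p: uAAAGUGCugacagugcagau

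The next set holds miRNAs that were low in the knockout and stood below, near or above wild type in the induced line.
miR-301a-3p: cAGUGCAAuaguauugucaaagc
miR-103-3p: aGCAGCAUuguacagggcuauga
miR-107-3p: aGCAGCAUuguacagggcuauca
let-7e-5p: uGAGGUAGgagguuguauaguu
let-7g-5p: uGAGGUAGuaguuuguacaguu
miR-431-5p: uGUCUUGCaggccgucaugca
miR-298-5p: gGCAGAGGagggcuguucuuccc
miR-666-5p: aGCGGGCAcagcugugagagcc
miR-667-3p: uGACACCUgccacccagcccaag

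The 2 wild type libraries held 949620 (A) and 1115712 (B) miRNA counts, and the 2 induced libraries 1326638 (A) and 1117435 (B). The other 4 libraries were shallower, at 163467 to 736895. Levels are given in CPM, counts relative to the library total after edgeR's TMM scaling, and changes as log2 fold changes ± SE of induced against wild type. Both are relative: a change of all miRNAs together would not show. Paired values are libraries A and B, or lines 1 and 2 for the knockout. No Ago2 or Ago1 transcript was analysed here, and the genotypes are as labelled. The miR-290-295 cluster, the defining miRNA locus of mouse embryonic stem cells, made up 28.1 and 25.8% of wild type counts and 28 and 27.4% of induced ones. Muscle markers held at most 0.00273% of any library, and 10 of the 15 listed had no count.

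The induced line remained different from wild type. At an adjusted p under 0.05 (edgeR's quasi-likelihood F test with Benjamini-Hochberg adjustment over 475 miRNAs), 185 miRNAs differed, or 38.9%. Of these 91 were higher in the induced line (19.2%) and 94 lower (19.8%), and 143 differed at least 2-fold, 69 higher and 74 lower. In all 185 the libraries of the groups did not overlap, as was so for 76.0% of all tested miRNAs. Of the 12 largest falls among calls of at least 20 CPM on average, that of miR-363-3p (8.71-fold) started from the highest wild type level. Of the 12 largest rises, that of miR-205-5p (5.30-fold) reached the highest level. For the same 475 miRNAs in the same fit, 57.7% differed between the knockout lines and wild type, 59.2% between the uninduced line and wild type, 29.9% between the induced line and the knockout lines, and 28.6% between the induced and uninduced line (100 higher with doxycycline, 21.1%, and 36 lower, 7.58%). These comparisons share libraries. How many miRNAs were called depended on single libraries: leaving out wild type A gave 102 (68 higher, 34 lower), wild type B 105 (44 higher, 61 lower), induced A 105 (68 higher, 37 lower) and induced B 75 (48 higher, 27 lower). None of the 185 changed sign in these fits.

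**Figure D1:**
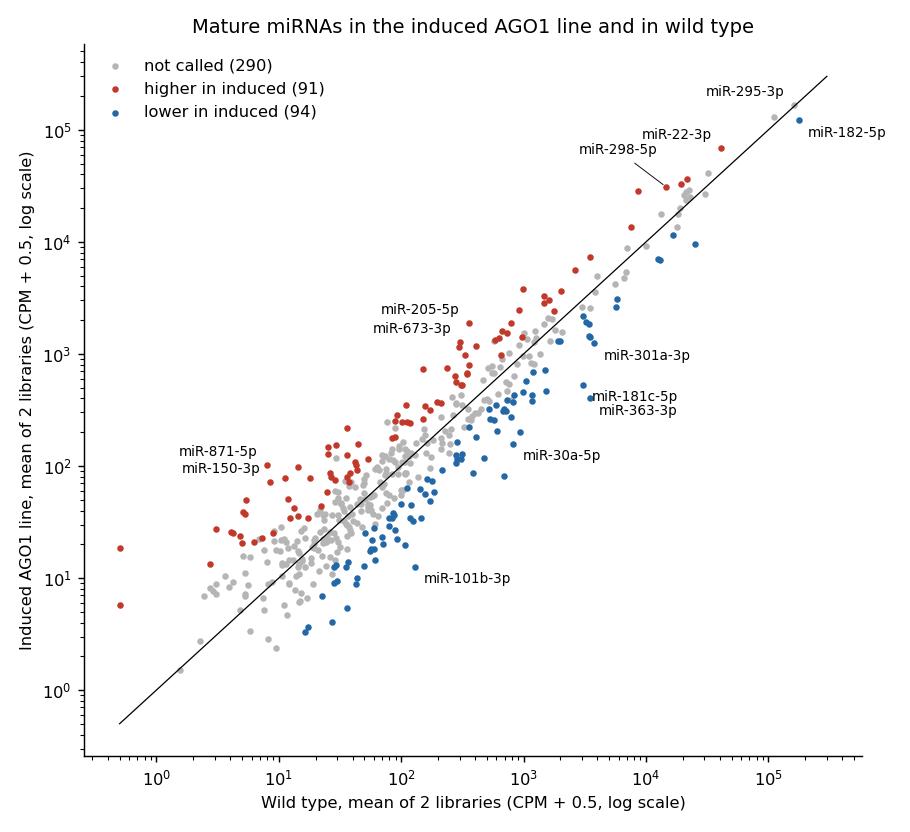
Mean CPM of 475 tested miRNAs in wild type (x axis, log scale) and in the induced AGO1 line (y axis, log scale), 2 libraries each, with 0.5 added. Red points are the 91 miRNAs called higher and blue points the 94 called lower at an edgeR adjusted p under 0.05; called miRNAs lie on both sides of the line of equality at most levels, while the 2 with no wild type count are both higher and miR-182-5p, the highest call, is lower.

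Of the most abundant miRNAs, miR-295-3p and miR-127-3p were not called, miR-22-3p was higher and miR-182-5p was lower. miR-295-3p, the leading product of the miR-290-295 cluster, stood at 176418 and 144655 CPM in wild type and 179739 and 154521 CPM in the induced line, a change of 0.06 ± 0.15 (edgeR adjusted p = 0.787) on the log2 scale. The libraries of the groups overlapped, and the 95% interval of the change was -0.27 to 0.38. miR-127-3p, of the imprinted Dlk1-Dio3 region, differed by 0.22 ± 0.19 (edgeR adjusted p = 0.373). miR-22-3p, a broadly expressed miRNA, was at 40961 CPM in both wild type libraries and at 66739.5 and 70899 CPM in the induced line (0.75 ± 0.13, edgeR adjusted p = 0.00184). It stood at 40889.6 and 40361 CPM in the knockout lines and 57254 and 61299 CPM in the uninduced line, so the AGO1 line was higher than the other cells with and without doxycycline. miR-182-5p, of the sensory miR-183-96-182 cluster, fell from 182271 and 172047 to 129781 and 113420.0 CPM (-0.54 ± 0.14, edgeR adjusted p = 0.0148), not called when any of these 4 libraries was left out (edgeR adjusted p = 0.0542 to 0.279).

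The levels in the other cells show which differences the knockout and the induced line had in common. Of the 475 miRNAs, 133 were called against wild type both in the knockout lines and, in the same direction, in the induced line, 65 higher and 68 lower. In 84 of these the change was smaller in the induced line than in the knockout. Another 6 were called in opposite directions, below wild type in the knockout and above it in the induced line. A further 46 were called in the induced line alone, 20 higher and 26 lower, and 135 in the knockout alone. Of these 135, 83 were within 0.5 (log2) of wild type in the induced line. All these counts share the wild type libraries, and they are a description of where levels stood, with no test. The plot of levels in 8 libraries gives 4 examples of each pattern.

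**Figure D2:**
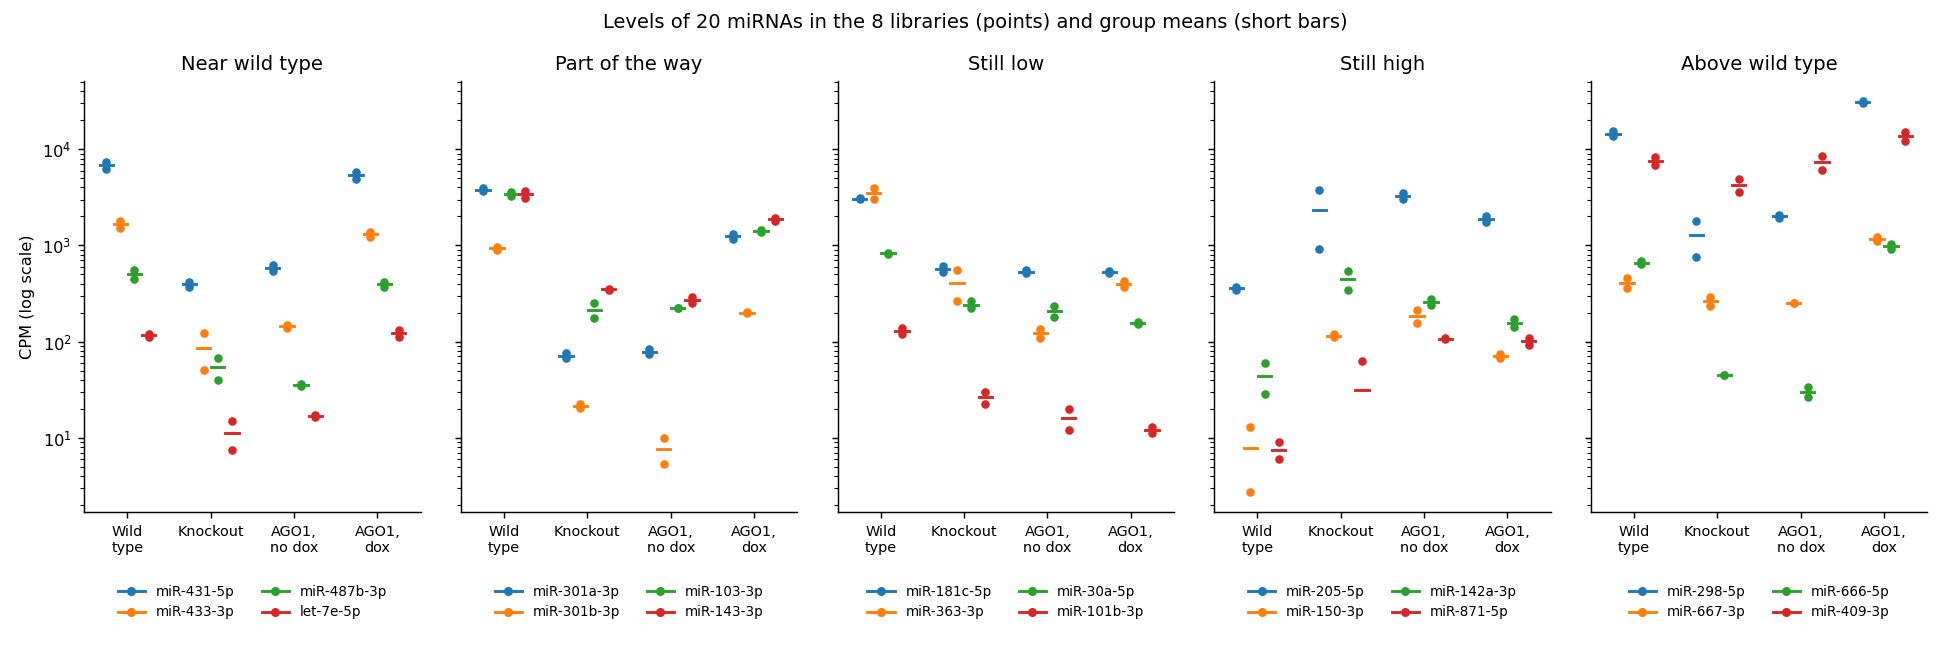
CPM (log scale) of 20 miRNAs in each of the 8 libraries (points) with the mean of each group of 2 (short bars), in wild type, knockout lines, and the AGO1 line without and with doxycycline. From left to right the panels show miRNAs low without AGO2 that stood near wild type in the induced line, those that came part of the way, those that stayed low, those that stayed high, and those that passed wild type; miR-871-5p had no count in knockout line 2 and has no point there.

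Among the miRNAs that stayed low was miR-181c-5p, of a family studied in T cells. It fell from 3104 and 3024 CPM in wild type to 513 and 542 CPM in the induced line, a 5.81-fold difference (-2.54 ± 0.18, edgeR adjusted p = 2.63e-05). The knockout lines had 528 and 604 CPM and the uninduced line 513 and 553 CPM. All 6 libraries without AGO2 were thus below both wild type libraries, and doxycycline made a difference of -0.01 ± 0.18 (edgeR adjusted p = 0.968). miR-101b-3p, of a family known for targeting the chromatin enzyme EZH2, had 139 and 119 CPM in wild type and 11.1 and 13 CPM in the induced line, the largest fall among the called miRNAs with a mean of at least 20 CPM (-3.40 ± 0.35, edgeR adjusted p = 0.000112). Its relative miR-101a-3p was not low in the knockout, with 875 and 720.1 CPM in the knockout lines and 678 and 523 CPM uninduced. It fell from 796 and 663 to 403 and 378 CPM in the induced line (-0.90 ± 0.22, edgeR adjusted p = 0.00959), not called without wild type A, induced A or induced B (edgeR adjusted p = 0.113 to 0.144). miR-30a-5p fell from 813 and 836 to 161 and 151 CPM (-2.40 ± 0.23, edgeR adjusted p = 8.55e-05), against 222 and 262 CPM in the knockout lines. miR-532-5p, from an intron of the chloride channel gene Clcn5, fell from 369.6 and 408 to 93.3 and 78.8 CPM (-2.17 ± 0.28, edgeR adjusted p = 0.000436), with 47.3 and 75.5 CPM in the knockout lines and 58.6 and 59.6 CPM uninduced. miR-6944-3p was also lower (-2.09 ± 0.43, edgeR adjusted p = 0.00456), though that call did not hold without wild type A (edgeR adjusted p = 0.065) or induced A (edgeR adjusted p = 0.0712).

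On the X chromosome, the miR-106a-363 cluster, a paralog of the proliferation-promoting miR-17-92 cluster, held several of the largest falls. It spans positions 52741693 to 52742567 of chromosome X on the minus strand (GRCm38), and no other annotated gene overlaps miR-363 (52741693 to 52741767) or miR-18b (52742331 to 52742413) in GENCODE vM21. miR-363-3p stood at 3945 and 3018 CPM in wild type, 553 and 262 CPM in the knockout lines, 108 and 136 CPM in the uninduced line and 372 and 428 CPM in the induced line. It rose with doxycycline (1.73 ± 0.33, edgeR adjusted p = 0.00349) and was still far below wild type (-3.12 ± 0.32, edgeR adjusted p = 0.000112). miR-18b-5p stood at 788 and 585 CPM in wild type and 73.6 and 86.8 CPM in the induced line (-3.10 ± 0.33, edgeR adjusted p = 0.000151), and doxycycline made no called difference (0.39 ± 0.35, edgeR adjusted p = 0.426). Tested arms without a sequence entry, such as miR-363-5p, or with copies in another cluster were left out of the cluster counts. Of the 8 arms from 6 hairpins counted here, 4 were lower and 1 higher, with a median of -1.40. Over all tested miRNAs 19.2% were higher and 19.8% lower, with a median of 0.01. The one that was higher, miR-92a-2-5p, was counted only 3 and 1 times in wild type against 16 and 12 times in the induced line. In the miR-17-92 cluster itself, on chromosome 14 (115043671 to 115044506), 2 of 8 arms counted in the same way were higher and 2 lower. These shares are near those of all tested miRNAs, and the median was 0.25.

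By seed, the miR-17 family (AAAGUGC) had 5 of 6 tested members lower and 0 higher, beside 19.2% higher and 19.8% lower over all tested miRNAs, with a median of -1.29. miR-106a-5p, miR-20b-5p and miR-106b-5p were called with any 1 library left out. miR-106a-5p was at 1635 and 1433 CPM in wild type and 516 and 410.0 CPM in the induced line (-1.73 ± 0.21, edgeR adjusted p = 0.000335), with 650.3 and 710.0 CPM in the knockout lines and 459.7 and 377 CPM uninduced. miR-93-5p, the most abundant member, had 2930.3 and 2739 CPM in the knockout lines and 2679.7 and 2403 CPM uninduced, and fell from 6017 and 5354 to 2849 and 2351 CPM (-1.13 ± 0.18, edgeR adjusted p = 0.00128), with an edgeR adjusted p of 0.0521 (-0.87) without induced B. miR-17-5p (-0.62 ± 0.19, edgeR adjusted p = 0.0299) was not called without any 1 of the AGO1 or wild type libraries (edgeR adjusted p = 0.0539 to 0.359). miR-20a-5p was the member not called, at 1277 and 940.0 CPM in wild type and 1037 and 859.9 CPM in the induced line (-0.22 ± 0.20, edgeR adjusted p = 0.403). With mature sequences this alike, the split of reads among members is uncertain. All 3 members of the miR-148 and miR-152 seed (CAGUGCA) were also lower, including miR-148a-3p (9852 and 8958 CPM in the knockout lines and 7902 and 8553 CPM uninduced) at 12566 and 12637 CPM in wild type and 6946 and 7240.2 CPM in the induced line (-0.83 ± 0.15, edgeR adjusted p = 0.00251), not called without induced A (edgeR adjusted p = 0.0915) or induced B (edgeR adjusted p = 0.0594).

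A shared seed did not mean a shared change in 2 other families. In the miR-25 family (AUUGCAC), miR-363-3p and miR-32-5p were lower, miR-92b-3p was higher, and miR-25-3p, miR-92a-3p and miR-367-3p were not called. miR-32-5p, from an intron of Tmem245 on chromosome 4, fell from 96.3 and 118 to 20.5 and 18 CPM (-2.46 ± 0.34, edgeR adjusted p = 0.000638), with 47.3 and 35.2 CPM in the knockout lines and 34.6 and 19.9 CPM uninduced. miR-92b-3p rose from 9517 and 7651 CPM to 28723 and 28229.6 CPM (1.73 ± 0.16, edgeR adjusted p = 8.55e-05), and was also high in the knockout lines (22316 and 22746 CPM) and the uninduced line (34585 and 38986 CPM). Among the abundant members miR-25-3p stood at 18458 and 17166 CPM in wild type and 14122 and 12953 CPM in the induced line (-0.40 ± 0.18, edgeR adjusted p = 0.106), with a 95% interval of -0.79 to 0.00. In the miR-181 family (ACAUUCA), miR-181c-5p and miR-181d-5p were lower while miR-181a-5p and miR-181b-5p were higher. miR-181d-5p fell from 3127 and 2954 to 2218 and 2133 CPM (-0.48 ± 0.16, edgeR adjusted p = 0.0389), not called without any 1 of the AGO1 or wild type libraries (edgeR adjusted p = 0.103 to 0.417). miR-181a-5p had 7.13 and 20.7 CPM in wild type and 95 and 101 CPM in the induced line (2.75 ± 0.77, edgeR adjusted p = 0.0192). The call of miR-181a-5p did not hold without wild type A (2.40, edgeR adjusted p = 0.112) or induced B (2.85, edgeR adjusted p = 0.0562). miR-181b-5p had 2.38 and 2.70 CPM in wild type, from 2 and 3 counts, and 36.8 and 17 CPM in the induced line (3.32 ± 0.75, edgeR adjusted p = 0.00683), and its call did not hold without wild type B (edgeR adjusted p = 0.0539). Knockout line 2 had only 10.1 CPM of miR-181a-5p against 192 CPM in line 1, the parent of the AGO1 line.

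The let-7 family, whose processing LIN28 blocks in pluripotent cells, was lower in most members: 1 of 11 tested members was higher and 8 lower, with a median log2 fold change of -1.43, against 38.9% called overall. Of the 8, 5 were also called lower in the knockout. let-7g-5p stood at 307 and 249 CPM in wild type and 119 and 92.8 CPM in the induced line (-1.39 ± 0.29, edgeR adjusted p = 0.00444), above the 36 and 49.7 CPM of the uninduced line. The let-7g-5p call did not hold without wild type A (edgeR adjusted p = 0.0548) or induced B (edgeR adjusted p = 0.105). let-7i-5p fell from 225 and 145 to 64.2 and 51.9 CPM (-1.66 ± 0.35, edgeR adjusted p = 0.00488), not called without the same libraries (edgeR adjusted p = 0.065 and 0.0887). let-7e-5p was at the wild type level, with 113 and 119 CPM in wild type and 112 and 132 CPM in the induced line (0.07 ± 0.27, edgeR adjusted p = 0.848; 95% interval -0.53 to 0.67), after 7.48 and 15.1 CPM in the knockout lines. let-7c-5p was above wild type, at 93.9 and 106 CPM in wild type and 265 and 229 CPM in the induced line (1.30 ± 0.30, edgeR adjusted p = 0.00768). let-7e and let-7c differ from the other members by few bases, so reads may be shared. Without wild type A or without induced B, 0 of the 8 falls were called by edgeR (5 of 8 at an unadjusted p under 0.05 in each), with list medians of -1.06 and -1.27. Without induced A 3 of 8 were called and without wild type B 5, and the DESeq2 Wald test called 5.

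In the miR-23, miR-27 and miR-24 clusters, 0 of 8 tested members were higher and 5 lower, with a median log2 fold change of -1.14, beside 19.2% higher and 19.8% lower over all tested miRNAs. They made up 2.74 and 2.46% of wild type counts, 1.79 and 1.6% in the knockout lines, 1.19 and 1.04% uninduced and 1.03 and 0.899% induced. miR-27b-3p, the most abundant, fell from 28177 and 22457 to 10292 and 8742 CPM (-1.41 ± 0.19, edgeR adjusted p = 0.000638), and its level in the uninduced line was 9931 and 8404 CPM. miR-23b-3p fell from 112 and 72.9 to 20.5 and 22.9 CPM (-2.07 ± 0.37, edgeR adjusted p = 0.00221). The tested 5p arms, miR-24-2-5p, miR-27a-5p and miR-27b-5p, were the members not called. Of these, miR-24-2-5p was not a minor arm by level. Its wild type mean was 247 CPM, beside 215 CPM for miR-24-3p. The miR-200 family, keepers of epithelial identity, was lower in the AGO1 line than in wild type and the knockout lines. Its share of all counts was 0.13 and 0.131% for wild type, 0.134 and 0.117% for the knockout lines, 0.0615 and 0.0597% for the uninduced and 0.0555 and 0.0549% for the induced line. Against wild type, 0 of 8 tested members were higher and 4 lower, with a median log2 fold change of -0.99, beside the same shares over all miRNAs. Of the 4 that were lower, miR-429-3p alone was also called lower in the knockout. miR-429-3p fell from 782 and 665 to 298 and 318 CPM (-1.23 ± 0.23, edgeR adjusted p = 0.00305; 491 and 368 CPM in the knockout lines and 179.9 and 238 CPM uninduced), not called without wild type A (edgeR adjusted p = 0.0519), induced A (edgeR adjusted p = 0.0631) or induced B (edgeR adjusted p = 0.0521). Without induced B, 0 members of the miR-200 family were called by edgeR (3 of 8 at an unadjusted p under 0.05), and without wild type A 1 was.

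**Figure D3:**
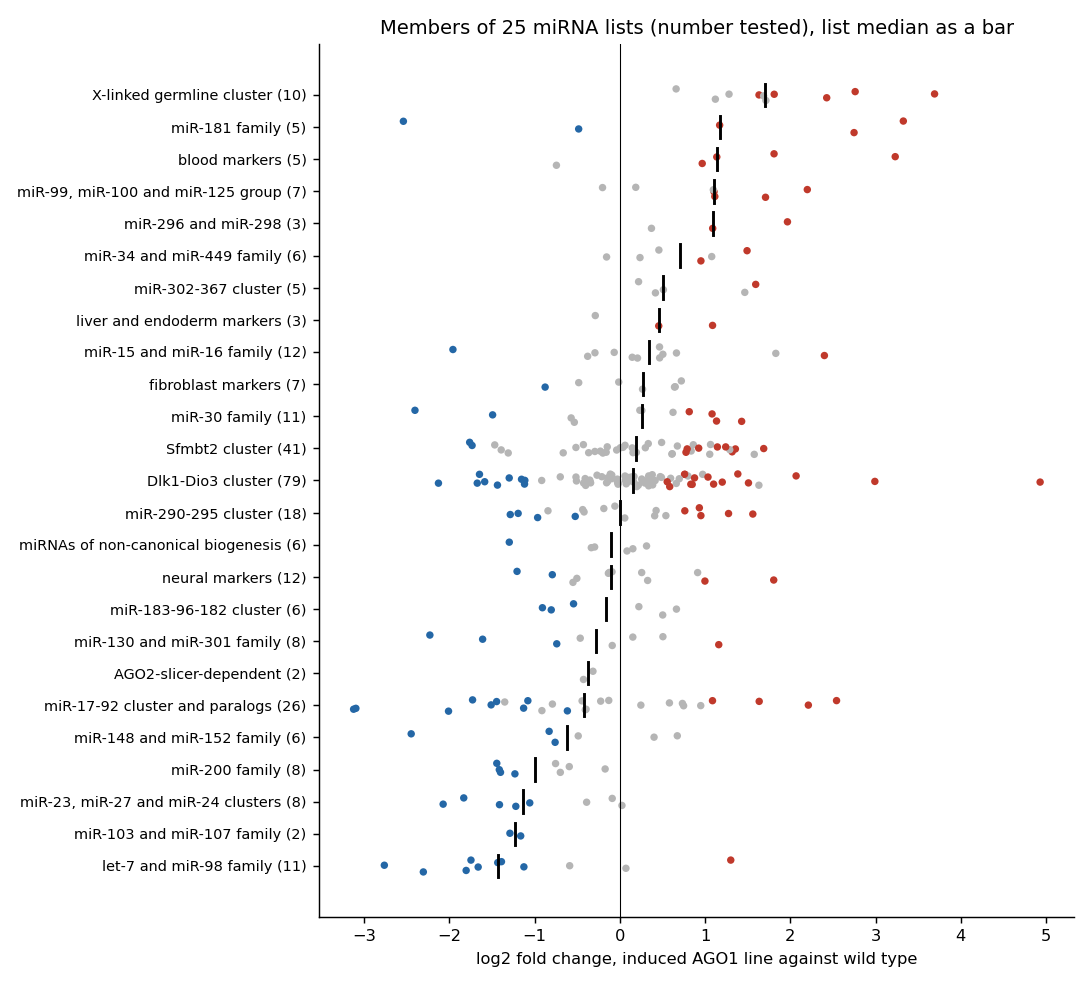
log2 fold change of induced AGO1 line against wild type (x axis) for the tested members of 25 lists (y axis, number tested in parentheses), with called members in red (higher) or blue (lower), others in grey, and the list median as a bar. The let-7 and miR-98 family has the lowest median, -1.43, and the X-linked germline cluster the highest, 1.70.

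Several miRNAs came part of the way back. miR-301a-3p, of the miR-130 seed family and from an intron of Ska2 (chromosome 11, 87113004 to 87113089), had 3926 and 3641 CPM in wild type and 67.3 and 75.5 CPM in the knockout lines. It was at 74.6 and 82.8 CPM in the uninduced and 1321 and 1159 CPM in the induced line. The induced line thus stood 3.05-fold below wild type (-1.61 ± 0.18, edgeR adjusted p = 0.000191) but far above the uninduced line (3.99 ± 0.21, edgeR adjusted p = 5.55e-07), with no overlap between groups on either side. miR-301b-3p, nearly alike in sequence, did the same at a lower level, from 965 and 899 CPM in wild type to 5.33 and 9.93 CPM uninduced and 196 and 202 CPM induced (-2.23 ± 0.23, edgeR adjusted p = 0.000112 against wild type). Of the seed relatives, miR-130b-3p was lower (-0.74 ± 0.20, edgeR adjusted p = 0.0148) and miR-130a-3p was not called (-0.46 ± 0.18, edgeR adjusted p = 0.0613). The miR-130b-3p call did not hold without wild type A, uninduced B, induced A or induced B (edgeR adjusted p = 0.0531 to 0.246), and miR-130a-3p was called by the DESeq2 Wald test.

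miR-103-3p, which has a copy in an intron of Pank2 (chromosome 2, 131288052 to 131288137) and another in an intron of Pank3 (chromosome 11, 35782396 to 35782481), and miR-107-3p, from an intron of Pank1 (chromosome 19, 34820687 to 34820773), regulate metabolism and share a seed. Both stood below wild type in the induced line. miR-103-3p stood at 3615 and 3291 CPM in wild type, 225 and 222 CPM uninduced and 1390.5 and 1435 CPM induced (-1.29 ± 0.20, edgeR adjusted p = 0.00109 against wild type). miR-107-3p stood at 324 and 236 CPM in wild type, 14.7 and 26.5 CPM uninduced and 131 and 119 CPM induced (-1.16 ± 0.30, edgeR adjusted p = 0.0126), not called without wild type A (-0.74, edgeR adjusted p = 0.143), induced A (-1.09, edgeR adjusted p = 0.115) or induced B (-0.97, edgeR adjusted p = 0.163). The sequences are near-identical, and reads may be shared between them. miR-143-3p, typical of vascular smooth muscle and stroma, stood at 3147 and 3693 CPM in wild type, 351 and 347 CPM in the knockout lines and 1944 and 1783 CPM in the induced line (-0.88 ± 0.18, edgeR adjusted p = 0.00444). Its call did not hold without induced A (edgeR adjusted p = 0.0801) or induced B (edgeR adjusted p = 0.115). Beside it, the 12 fibroblast markers, to which it belongs, made up 0.397 and 0.517% of wild type counts and 0.274 and 0.259% of induced ones, and of the other 6 tested markers 0 were called by edgeR (1 at an unadjusted p under 0.05, and 1 by the DESeq2 Wald test). Their part in the result was not tested. miR-1981-5p, a miRNA of non-canonical biogenesis, rose from 2.67 and 6.62 CPM uninduced to 30.8 and 36.9 CPM induced, against 85.6 and 81 CPM in wild type (-1.30 ± 0.34, edgeR adjusted p = 0.0135). Its call against wild type did not hold without any 1 of the 4 libraries compared (edgeR adjusted p = 0.0564 to 0.202) or by the DESeq2 Wald test.

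Of the miRNAs called in the knockout that stood within 0.5 (log2) of wild type in the induced line, the 8 furthest from wild type in the knockout were all low there. They were miR-431-5p, miR-433-3p, miR-487b-3p, miR-341-3p, miR-1197-3p, miR-1983, miR-324-5p and let-7e-5p. The 5 named before miR-1983 come from the Dlk1-Dio3 region of chromosome 12, an imprinted domain with many miRNA genes that held 79 of the 475 tested miRNAs. The 8 were picked for the size of their knockout change, and whether the region stands out was not tested. miR-431-5p, transcribed opposite an exon of Rtl1 (chromosome 12, 109590447 to 109590537), stood at 7426 and 6210.2 CPM in wild type, 421 and 373 CPM in the knockout lines and 4875 and 5807 CPM in the induced line. Both induced libraries lay below both wild type libraries, and the difference was not called (-0.35 ± 0.19, edgeR adjusted p = 0.154; 95% interval -0.77 to 0.06). miR-433-3p, also opposite Rtl1, stood at 1794 and 1507 CPM in wild type, 122 and 50.4 CPM in the knockout lines and 1234 and 1369.6 CPM induced (-0.34 ± 0.27, edgeR adjusted p = 0.335; interval -0.95 to 0.26). miR-487b-3p stood at 555 and 449 CPM in wild type, 67.3 and 40.3 CPM in the knockout lines and 419 and 370.1 CPM induced (-0.35 ± 0.25, edgeR adjusted p = 0.276; interval -0.89 to 0.20). miR-341-3p, from an intron of Rian, stood at 4303 and 3322 CPM in wild type, 401 and 282 CPM in the knockout lines and 3153 and 3988 CPM induced, and its groups overlapped (-0.09 ± 0.25, edgeR adjusted p = 0.796; interval -0.65 to 0.46). These intervals leave room for a difference of up to 0.95 (log2) below wild type, the lowest bound among these 4. miR-1983 went from 56 and 43 CPM uninduced to 596 and 535 CPM induced against 814 and 610.5 CPM in wild type (-0.33 ± 0.23, edgeR adjusted p = 0.26).

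The 6 miRNAs that were below wild type in the knockout and above it in the induced line were miR-298-5p, miR-667-3p, miR-666-5p, miR-431-3p, miR-409-3p and miR-291b-5p. miR-298-5p, from the imprinted Nespas-Gnas locus (chromosome 2, 174267504 to 174267585), had 15446 and 13691 CPM in wild type, 1804 and 755 CPM in the knockout lines, 2065 and 1936 CPM uninduced and 29954 and 32018 CPM induced. It rose with doxycycline by 3.95 ± 0.34 (edgeR adjusted p = 1.55e-05) and passed wild type 2.13-fold (1.09 ± 0.31, edgeR adjusted p = 0.0197). That call did not hold without wild type A (1.35, edgeR adjusted p = 0.0537), wild type B (1.00, edgeR adjusted p = 0.117) or induced B (1.17, edgeR adjusted p = 0.0594). Its neighbour miR-296-3p was already high without AGO1, at 972 and 438 CPM in the knockout lines and 922 and 1023 CPM uninduced, against 296 and 296 CPM in wild type and 1065 and 1249 CPM induced (1.97 ± 0.31, edgeR adjusted p = 0.00128). Both hairpins together held 1.42 and 1.41% of counts in wild type, 0.334 and 0.155% in the knockout lines and 2.75 and 3.01% in the induced line.

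miR-667-3p, of the Dlk1-Dio3 region (chromosome 12, 109720006 to 109720097), had 458 and 361 CPM in wild type and 1102 and 1226 CPM in the induced line (1.51 ± 0.22, edgeR adjusted p = 0.000702). It had 294 and 232 CPM in the knockout lines and 253 and 252 CPM uninduced. Its call against wild type held with any 1 of the 8 libraries left out. miR-666-5p went from 635 and 681 CPM in wild type to 33.3 and 26.5 CPM uninduced and 928 and 1045 CPM induced, a rise of 5.0 ± 0.26 with doxycycline (edgeR adjusted p = 5.55e-07). Against wild type its excess was 0.58 ± 0.20 (edgeR adjusted p = 0.0389), not called when either AGO1 uninduced library or any of the 4 libraries compared was left out (edgeR adjusted p = 0.0648 to 0.177). miR-409-3p, from an intron of Mirg, rose from 8335 and 6786 to 12234 and 14993 CPM (0.85 ± 0.22, edgeR adjusted p = 0.0138), with no call without wild type B (0.70, edgeR adjusted p = 0.112) or induced B (edgeR adjusted p = 0.0759). miR-431-3p, the minor arm of miR-431, was at 156 and 190.0 CPM in wild type and 308 and 327 CPM in the induced line (0.88 ± 0.26, edgeR adjusted p = 0.0252), and its call was lost when any of the 4 libraries compared was left out (edgeR adjusted p = 0.065 to 0.109). miR-291b-5p had 36.8 and 36.9 CPM in wild type and 54.8 and 86.8 CPM in the induced line (0.93 ± 0.33, edgeR adjusted p = 0.0464). Its call held neither without either wild type library, either uninduced library or induced B (edgeR adjusted p = 0.0534 to 0.298), nor by the DESeq2 Wald test.

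In the Dlk1-Dio3 region as a whole, 15 of 79 tested members were higher and 9 lower, with a median log2 fold change of 0.16. That is 30.4% called, beside 38.9% of all tested miRNAs. Its share of all counts was 23.9 and 24.2% in wild type and 27.2 and 28.7% in the induced line, and the groups did not overlap. The highest members included miR-673-3p, which rose from 276 and 329.6 to 1254 and 1285 CPM (2.07 ± 0.20, edgeR adjusted p = 8.55e-05), and miR-134-3p, the minor arm of miR-134, from 4.75 and 4.50 to 27.4 and 48.9 CPM (2.99 ± 0.55, edgeR adjusted p = 0.00251). miR-673-3p was above wild type in the knockout lines (521 and 589 CPM) and higher again in the uninduced line (907 and 867 CPM). The 9 members that were lower included both arms of miR-540 and of miR-376a, with miR-540-3p at 61.8 and 49.5 CPM in wild type and 15.4 and 19.95 CPM in the induced line (-1.65 ± 0.35, edgeR adjusted p = 0.00481), not called without wild type A, induced A or induced B (edgeR adjusted p = 0.0521 to 0.111). miR-3071-5p, whose gene lies on the strand opposite miR-136, had the largest fall of the region (-2.13 ± 0.70, edgeR adjusted p = 0.0359), not called when any of the 4 libraries compared was left out (edgeR adjusted p = 0.0539 to 0.223).

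Other miRNAs stayed above wild type. miR-205-5p, an epithelial miRNA, stood at 345 and 369 CPM in wild type, 3802 and 916 CPM in the knockout lines, 3529 and 3065 CPM uninduced and 2042 and 1746 CPM induced (2.41 ± 0.49, edgeR adjusted p = 0.00427). Both arms were high, with miR-205-3p at 27.3 and 43.2 CPM in wild type and 207 and 230.4 CPM in the induced line (2.61 ± 0.52, edgeR adjusted p = 0.00393). miR-125a-5p rose from 2677 and 2527 to 6271 and 4993 CPM (1.11 ± 0.20, edgeR adjusted p = 0.00217), with 4231 and 4909.8 CPM in the knockout lines and 7718 and 6001 CPM uninduced. It shares its seed (CCCUGAG) with miR-125b-5p and miR-351-5p, and all 3 were higher, with a median of 1.21; without wild type B, miR-351-5p was not called (edgeR adjusted p = 0.0818). Over all tested miRNAs 19.2% were higher. At a lower level, miR-146a-5p, known as a brake on inflammatory signalling, had 2.38 and 7.20 CPM in wild type and 30.8 and 41.9 CPM in the induced line (2.80 ± 0.48, edgeR adjusted p = 0.00184), with 32.4 and 30.2 CPM in the knockout lines and 65.3 and 69.5 CPM uninduced. miR-1247-5p, from an exon of Dio3os, had 3.57 and 6.30 CPM in wild type and 37.7 and 60.9 CPM in the induced line (3.23 ± 0.50, edgeR adjusted p = 0.00109), with 37.4 and 40.3 CPM in the knockout lines and 49.3 and 82.8 CPM uninduced. In wild type A and B these last miRNAs had few counts, 2 and 8 for miR-146a-5p and 3 and 7 for miR-1247-5p. A count of 0 allows up to 3 counts, or 2.57 to 3.57 CPM in these 4 libraries. Reads are not independent molecules, so such a floor covers counting error only.

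Among miRNAs typical of other cells, most tested ones of blood stayed high: 4 of 5 tested members were higher and 0 lower, with a median log2 fold change of 1.14, beside 19.2% higher and 19.8% lower over all tested miRNAs. The 4 are both arms of only 2 hairpins, miR-142a and miR-150. Without TMM factors 3 of the 5 were called higher. The tested marker that was not called, miR-155-5p, stood at 57 and 37.8 CPM in wild type and 29.97 and 25.9 CPM in the induced line (-0.74 ± 0.39, edgeR adjusted p = 0.147), with 15 and 30.2 CPM in the knockout lines and 29.3 and 49.7 CPM uninduced. miR-150-3p rose from 13.1 and 2.70 to 67.6 and 73.8 CPM (3.23 ± 0.51, edgeR adjusted p = 0.00117) and miR-142a-3p from 28.5 and 59.4 to 171 and 142 CPM (1.81 ± 0.37, edgeR adjusted p = 0.00409). miR-150-3p stood at 119.6 and 111 CPM in the knockout lines and 157 and 212 CPM uninduced. miR-142a-3p stood at 341 and 544 CPM in the knockout lines and 277 and 242 CPM uninduced. All 4 of these libraries were above the induced ones for both miRNAs. The 11 blood markers held 0.169 and 0.192% of counts in wild type, 0.653 and 0.794% in the knockout lines and 0.336 and 0.357% in the induced line. Of them, 3 had no count in any library, among them the red cell miRNA miR-451a, and fewer cells of a type and less RNA per cell cannot be told apart in such bulk samples. miR-375-3p, typical of pancreatic islets, was at 45.2 and 40.5 CPM in wild type and 94.2 and 87.8 CPM in the induced line, down from 349 and 371 CPM uninduced (1.09 ± 0.34, edgeR adjusted p = 0.0301 against wild type). That call was lost when any of the 4 libraries compared was left out (edgeR adjusted p = 0.065 to 0.146). Of 12 tested neural markers 2 were higher, miR-219a-1-3p and miR-129-1-3p, and 2 lower, miR-124-3p (-1.21 ± 0.33, edgeR adjusted p = 0.0175) and miR-128-3p (-0.79 ± 0.25, edgeR adjusted p = 0.0291). That is 33.3% called, near the 38.9% of all tested miRNAs. None of these 4 calls held without wild type A, induced A or induced B (edgeR adjusted p = 0.0727 to 0.351). The neural list made up 0.208 and 0.188% of wild type counts and 0.121 and 0.138% of induced ones.

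The X-linked germline cluster, a set of testis-enriched miRNAs on chromosome X (66777256 to 66839125, minus strand), stood above wild type: 5 of 10 tested members were higher and 0 lower, with a median log2 fold change of 1.70 and a range of 0.66 to 3.69, beside 19.2% higher and 19.8% lower over all tested miRNAs. With a mean of at least 20 CPM required, 1 of 6 tested members was called higher, with a median of 1.47. The list median was 1.81 without wild type A and 1.79 without wild type B. miR-871-5p had 5.94 and 9.0 CPM in wild type, 105 and 109 CPM uninduced and 92.5 and 109 CPM induced (3.69 ± 0.68, edgeR adjusted p = 0.00257). In the knockout it was at 62.3 and 0 CPM, so line 1, from which the AGO1 line was made, had it and line 2 had no count. miR-465a-3p had 3.57 and 3.60 CPM in wild type, 22.4 and 5.04 CPM in the knockout lines and 26.5 and 23.9 CPM in the induced line (2.76 ± 0.57, edgeR adjusted p = 0.00444). In wild type A, 3.57 CPM is the level of 3 counts. miR-465a-3p, miR-465b-3p and miR-465c-3p have the same mature sequence, and 2 of these 3 are among the 5 calls. The tested miR-465 5p arms are near-identical. Single members, and the count of 5 of 10, are thus uncertain. The list held 0.0238 and 0.0272% of counts in wild type, 0.111 and 0.00918% in knockout lines 1 and 2, 0.107 and 0.0994% uninduced and 0.0782 and 0.0745% induced. Line 1 and the AGO1 line made from it were thus above line 2 and wild type, a difference that was not tested as such.

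A smaller set differed in the induced line but was not called in the knockout. miR-184-3p, known from the lens and cornea, had 17.8 and 31.5 CPM in wild type, 19.9 and 5.04 CPM in the knockout lines, 65.3 and 43 CPM uninduced and 181 and 116 CPM induced (2.56 ± 0.42, edgeR adjusted p = 0.00147). miR-3068-3p, from an intron of Alkbh1, had 25 and 32.4 CPM in wild type, 42.4 and 35.2 CPM in the knockout lines, 59.96 and 69.5 CPM uninduced and 161 and 145 CPM induced (2.40 ± 0.30, edgeR adjusted p = 0.000348). Both were called higher with doxycycline as well (1.40 ± 0.41, edgeR adjusted p = 0.0289, and 1.26 ± 0.29, edgeR adjusted p = 0.0104). miR-15b-3p, the minor arm of miR-15b, fell from 125 and 125 to 36 and 27.9 CPM (-1.96 ± 0.34, edgeR adjusted p = 0.00191), and its level without doxycycline was 36 and 53 CPM. The main arms of the miR-15 and miR-16 family (seed AGCAGCA), which restrain the cell cycle, had 0 of 6 tested members called by edgeR (2 at an unadjusted p under 0.05, and 0 by the DESeq2 Wald test), with log2 fold changes from -0.38 to 0.66. Over all tested miRNAs 38.9% were called. miRNAs that depend on slicing by AGO2 gave little to compare. miR-451a had 0 counts in all 8 libraries, and miR-486a-5p was counted 35 and 72 times in wild type against 51 and 36 times in the induced line (-0.43 ± 0.42, edgeR adjusted p = 0.439). miR-486a-3p did not pass the abundance filter. It was counted 0 and 0 times in wild type, 0 and 4 in the knockout lines, 4 and 0 uninduced and 13 and 8 induced. With no abundance filter, 1 of 4 tested members of this list was called higher and 0 lower.

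Both arms of 135 hairpins were tested for a change in their ratio, with each library as its own term, which frees the comparison from the scaling between libraries. By edgeR's quasi-likelihood test, 62 hairpins (45.9%) had another arm ratio in the induced line than in wild type, 30 toward the 5p arm (22.2%) and 32 toward the 3p arm (23.7%). With 1 of the 4 libraries left out, 38 to 56 were called. Of the 62, 44 moved toward the arm that was minor in wild type and 18 toward the major arm, and of all 135 hairpins, called or not, 86 had a change of that sign. That split uses the wild type counts that also enter the test. With the minor arm set by the knockout and uninduced libraries instead, it was 35 and 27. As levels, of 135 minor arms 23 were higher and 25 lower, with a median of 0.00, and of 135 major arms 30 were higher and 33 lower. That is 35.6% of minor and 46.7% of major arms called, beside 38.9% of all tested miRNAs.

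The miR-181c hairpin had the largest shift. Its 5p arm took 66.6 and 68.8% of what the hairpin gave in wild type and 13.2 and 14.4% in the induced line, a change of the 5p to 3p ratio of -3.71 ± 0.22 (edgeR adjusted p = 4.23e-08) on the log2 scale. It took 14.7 and 18.4% in the knockout lines and 13.6 and 17.1% uninduced, so the main arm was 5p in wild type and 3p in the 6 other libraries. While miR-181c-5p fell, miR-181c-3p rose from 1553 and 1374 to 3364 and 3224 CPM (1.17 ± 0.18, edgeR adjusted p = 0.00117). miR-30a did likewise, with 57.3 and 55.2% on the 5p arm in wild type, 29.4 and 21.7% uninduced and 17.9 and 16.3% induced (-2.64 ± 0.25, edgeR adjusted p = 2.9e-06). Its 3p arm was at 605 and 679.8 CPM in wild type and 739.8 and 772 CPM in the induced line (0.23 ± 0.20, edgeR adjusted p = 0.359), a change that was not called, while miR-30a-5p fell. In miR-30e the 3p arm was the main one in all libraries, and the 5p share was 14.7 and 14.3% in wild type and 1.97 and 2.43% in the induced line (-2.92 ± 0.23, edgeR adjusted p = 4.58e-07). In the other direction, miR-363 had 6.77 and 6.21% on the 5p arm in wild type and 23.2 and 25.4% in the induced line, beside 27.2 and 28.8% in the knockout lines and 40.9 and 35.9% uninduced (2.21 ± 0.22, edgeR adjusted p = 4.2e-06), while miR-363-3p fell and miR-363-5p changed by -0.91 ± 0.34 (edgeR adjusted p = 0.0535). miR-25 had 0.671 and 0.340% in wild type, 3.44 and 6.96% in the knockout lines, 3.61 and 4.6% uninduced and 1.70 and 2.42% induced (2.08 ± 0.39, edgeR adjusted p = 0.000892), where miR-25-5p was counted 105 and 65 times in wild type against 285 and 322 times in the induced line.

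**Figure D4:**
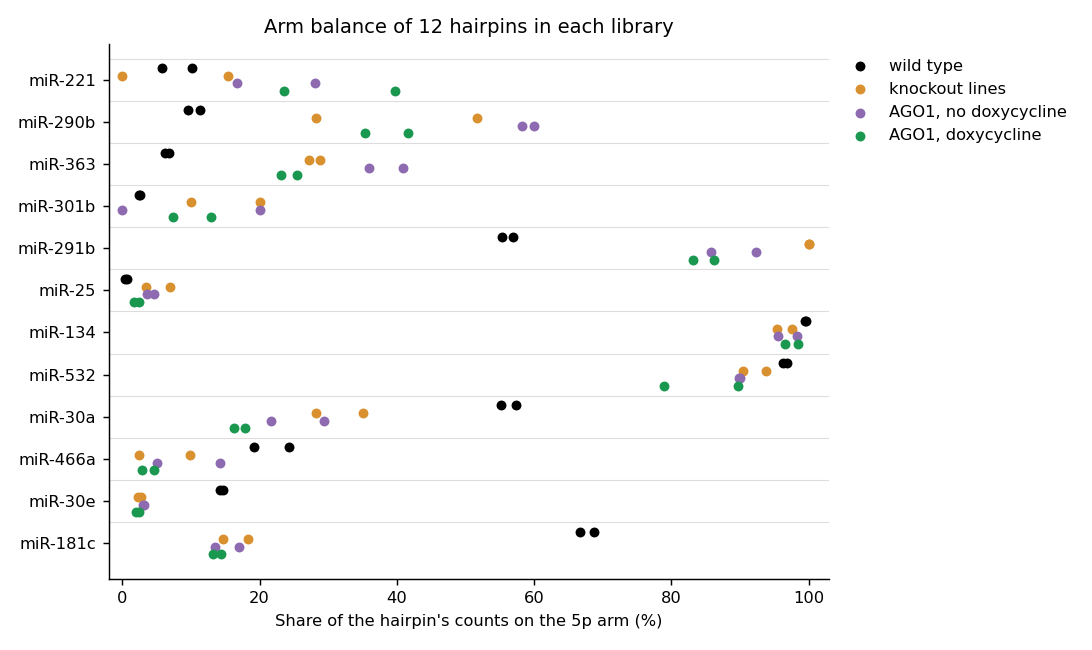
Share of each hairpin's counts on the 5p arm (x axis, %) for 12 hairpins (y axis) with the largest shifts among the called, 1 point per library, 2 per group; the lower 6 moved toward 3p and the upper 6 toward 5p. In miR-181c, miR-30a, miR-30e and miR-363 both wild type points lie apart from the 6 points without AGO2.

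In 20 of the 135 hairpins, called or not, the more abundant arm by the mean share in wild type was not the more abundant one in the induced line. Of these, 13 were called. The 13 called were miR-181c, miR-30a, miR-30d, miR-32, miR-290a, miR-292a, miR-3071, miR-466b and miR-466c, where the main arm became 3p, and miR-124, miR-148b, miR-369 and miR-542, where it became 5p. In some the arms were near equal in wild type. The 5p and 3p arms had means of 43.1 and 36.1 CPM there for miR-3071, and 13.9 and 12.7 CPM for miR-466b. Names in this set were chosen after their values were seen. miR-290a, of the pluripotency cluster (chromosome 7, 3218626 to 3218708), had 48.8 and 65.7% of its counts on the 5p arm in wild type and 23.5 and 19.1% in the induced line, beside 32 and 27% in the knockout lines and 16 and 15.2% uninduced (-2.33 ± 0.30, edgeR adjusted p = 4.56e-05). Its gene lies opposite miR-290b, so their reads could in part be exchanged. The arms of miR-290-295 hairpins as levels went both ways: 5 of 18 tested members were higher and 4 lower, with a median log2 fold change of -0.00. Over all tested miRNAs 19.2% were higher and 19.8% lower, shares near these. miR-290a-5p fell from 881 and 796 to 421 and 438 CPM (-0.96 ± 0.19, edgeR adjusted p = 0.00358) and miR-295-5p rose from 339.9 and 351 to 657 and 679 CPM (0.95 ± 0.24, edgeR adjusted p = 0.0123). The first call did not hold without wild type A, induced A or induced B (edgeR adjusted p = 0.0628 to 0.106), and the second not without wild type B or induced B (edgeR adjusted p = 0.0521 to 0.0615).

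The mature sequences called higher and lower differed in base composition, a description with no test. Close relatives are alike in sequence, so the miRNAs of a group are not independent. Among the 384 miRNAs with a sequence, split in 3 groups by GC content, the low GC group (23.8 to 43.5% GC) had 13 of 131 higher and 41 lower, with a median log2 fold change of -0.29. In the middle group 27 of 126 were higher and 30 lower, with a median of 0.15. Over all tested miRNAs 19.2% were higher and 19.8% lower, shares near those of the middle group. In the high GC group (54.5 to 100.0% GC) 33 of 127 were higher and 13 lower, with a median of 0.24. The order was the same among the more abundant miRNAs, with 6 higher and 24 lower at low GC and 18 higher and 5 lower at high GC, and medians of -0.44, 0.24 and 0.37 from low to high GC. Among the less abundant ones 7 were higher and 17 lower at low GC and 15 higher and 8 lower at high GC, but the medians, -0.13, 0.056 and -0.057, did not keep that order. The uninduced line against wild type had medians in the same order as the induced line, at -0.34, -0.18 and -0.14. For the knockout against wild type they were -0.33, -0.14 and -0.57, with high GC lowest. Between replicates, the medians of library A minus B were 0.23 and 0.20 at low and high GC in wild type, and 0.14 and -0.15 in the induced line. The part that library preparation plays in this was not tested.

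**Figure D5:**
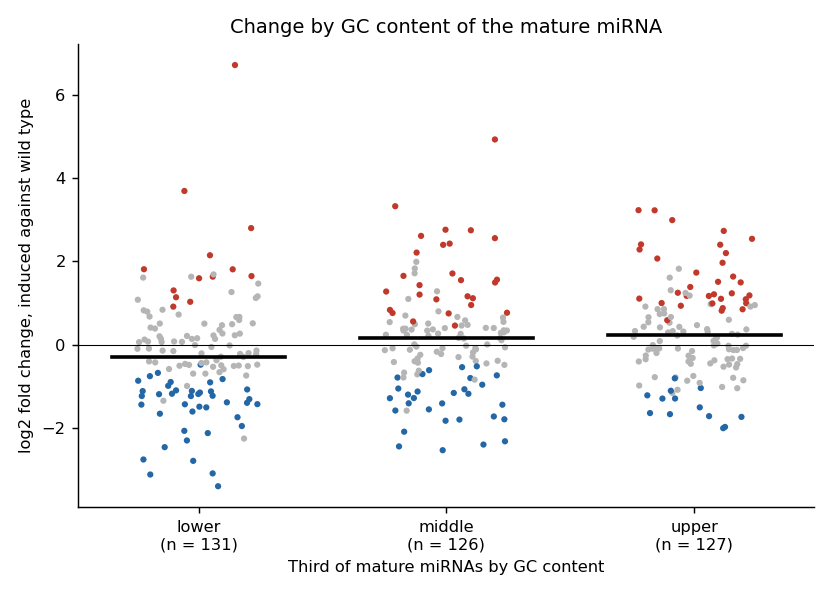
log2 fold change of induced AGO1 line against wild type (y axis) for 384 mature miRNAs in 3 groups by GC content (x axis), with called miRNAs in red (higher) or blue (lower), others in grey, and the median of each group as a bar. Blue points outnumber red ones at low GC (41 and 13) and red ones outnumber blue at high GC (33 and 13).

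By the base at the 5′ end, which sits in a pocket of the Argonaute protein, 27 of 148 miRNAs that begin with U were higher and 37 lower (median -0.13). Of 116 that begin with A 21 were higher and 21 lower (median 0.18), of 78 with C 12 and 20 (median -0.19), and of 42 with G 13 and 6 (median 0.50). The share called ran from 36.2% for A to 45.2% for G, around the 38.9% of all tested miRNAs. By arm, 41 of 219 5p miRNAs were higher and 46 lower, and 44 of 217 3p miRNAs were higher and 46 lower. By length, those of 21 bases or fewer had 11 higher and 19 lower of 68, those of 22 bases 43 and 46 of 227, and longer ones 19 and 19 of 89.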

How the data were processed

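Small RNA was sequenced from 1 µg of total RNA per library (Illumina TruSeq small RNA kit, per the labels' protocols). The authors deposited whole-number counts per mature miRNA, not normalized. Bowtie and mm10 are named in the submitters' processing notes. Trimming, mismatches, multiple matches and the miRNA release have no account in the labels. There are 2 header lines in the table, and 1 name in the second does not match the first, which was used (both are wild type libraries).

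Counts were tested with R 4.3.3 and edgeR 4.0.16: filterByExpr (475 miRNAs, at least 99.9% of each library's counts), TMM factors (0.881 to 1.22), and glmQLFTest, 2-sided, in 1 fit of 8 libraries in 4 groups with 4 residual degrees of freedom. A call is an adjusted p under 0.05. Each SE was derived from the F statistic, and intervals (95%) from the SE, so both are approximate. edgeR's common dispersion was equal to a coefficient of variation of 0.244. Tested on simulated data for induced against wild type (453 miRNAs), the test found 52 of 96 miRNAs with 2-fold and 93 of 97 with 4-fold changes, and made 4 wrong calls among 260 others. The arm ratio test (135 hairpins) found 30 of 40 with 4-fold changes and made 2 wrong calls among 95 others.

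The comparison, 26 lists and naming rule were chosen with earlier results of these data known. The rule takes the 12 largest rises and falls among calls of at least 20 CPM, the 10 most abundant, 2 per list by adjusted p, 8 each not restored, overshooting and near wild type, 6 hairpins in each direction of the arm ratio, and miR-451a and miR-486 (103 miRNAs, of which the text gives part). Others named were chosen after their values were seen. Hairpins enter the arm test where both arms share 1 base name. Coordinates and overlaps are those of GENCODE vM21 on GRCm38. Alternatives were DESeq2 1.42.0 (size factors or Wald test), other filters, 2-group fits, fits that leave out 1 library, and a replicate block of the letters.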

Additional observations from a re-analysis of the deposited data

How the results depend on the processing

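The number of calls against wild type (185, with 91 higher and 94 lower) kept within 1.5 times with DESeq2 size factors, the Wald test of DESeq2, a mean of at least 20 CPM and no filter on abundance. Without TMM factors 181 were called, 74 higher and 107 lower, and the median of all tested miRNAs moved from 0.01 to -0.09. With only the groups compared in the fit, 138 were higher (256 in all). The labels do not say that the letters A and B pair the samples. Deviations of same-lettered wild type and induced libraries had a correlation of -0.0015. It was 0.043 for wild type and uninduced and 0.17 for uninduced and induced libraries. With 1 difference between A and B per group, these values cannot decide whether the letters mark a shared culture or day. With the letters as a replicate block in that 2-group fit, 262 were called, of which 142 were higher, against 256 without it. Leaving out 1 of the 8 libraries gave 75 to 258 calls, 44 to 136 higher and 27 to 124 lower; 185 of 185 calls were kept without either knockout library and 75 without induced B, where the scaling also moved the median to 0.13. Without wild type A that median was 0.26, and without induced A 0.19. A fit without both knockout libraries, added after the data were seen, called 255, 128 higher and 127 lower. At least 2-fold, 143 were called. Arm ratio calls (62, 30 toward 5p) ran from 38 to 56 with a library left out, with 16 to 26 toward 5p and 22 to 30 toward 3p; with only the groups compared they were 68, and 48 with both arms at 20 CPM. Signs turned only for miRNAs not called. Among the miRNAs followed one by one, a part of those tested, they turned without TMM factors for let-7e-5p (-0.012) and miR-295-3p (-0.017). With a library left out they turned for miR-295-3p (-0.084 to 0.38), miR-1197-3p (-0.40 to 0.33), miR-1983 (-0.53 to 0.063), miR-20a-5p (-0.44 to 0.19), miR-92a-3p (-0.28 to 0.20), miR-292a-5p (-0.27 to 0.067), miR-301b-5p (-0.45 to 0.39), miR-324-5p (-0.87 to 0.30) and miR-341-3p (-0.27 to 0.28). Turns among the other miRNAs not called are not listed. The causes were not tested. A count of 0 allows up to 3.57 CPM in the libraries compared, and up to 15.1 CPM in knockout line 2.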

Other observations

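miR-670-3p was not counted in either wild type library (0 and 0) and was counted 19 and 20 times in the induced line, at least 11.7-fold higher with 3 counts over the wild type group as the floor. miR-299b-5p was counted 0 times in wild type and 4 and 7 times in the induced line, at least 3.30-fold higher with the same floor. Both were chosen after their values were seen, and miR-299b lies opposite miR-299a. The sequence of miR-299b-5p is that of miR-299a-5p without its first base. Its few reads therefore cannot be told from shortened miR-299a-5p, which was not called (0.40 ± 0.31, edgeR adjusted p = 0.322).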
